A study of Mus musculus with 6 samples.

Results

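The 10 circadian clock genes Arntl, Clock, Per1, Per2, Per3, Nr1d1, Nr1d2, Dbp, Tef and Bhlhe41 were described in pancreatic islets, the hormone-secreting cell clusters of the pancreas. They were picked by gene name as members of the clock, and are 10 of the 47643 genes in the count tables and of the 29725 genes with a count in any library. RNA was sequenced from islets of TG mice, whose transgene expresses the microRNA miR-203 specifically in beta cells, and of WT mice. Both groups were labelled as male, 10 weeks old and fasted for 12 h, and no other allele or agent was named for either. The promoter of the transgene and the time of day at which islets were taken are not given in the labels. Each genotype had 3 libraries. TG 1, TG 2, WT 1 and WT 2 were deposited in the first table, and TG 3 and WT 3 in the second.

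The mammalian clock is a feedback loop of transcription. The proteins BMAL1, encoded by Arntl, and CLOCK bind E-box elements and switch on the Per and Cry genes, whose products return to the nucleus and block them. BMAL1 and CLOCK also drive Nr1d1 and Nr1d2, which encode the nuclear receptors REV-ERBα and REV-ERBβ that repress Arntl, and Dbp and Tef, which encode transcription factors that bind D-box elements. In this loop Arntl transcripts run in antiphase to those of Dbp and Nr1d1 over the day. In the beta cell the clock is known for shaping insulin secretion, and mice that lack Bmal1 in their islets are glucose intolerant.

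The libraries held 20176456 to 27482339 counts. The Mir203 gene had 170, 164 and 150 counts in TG 1, TG 2 and TG 3, against 39, 0 and 0 counts in WT 1, WT 2 and WT 3. The tables differed in more than depth. Xist, which is made in female cells, had 27240 and 25145 counts in the second-table libraries TG 3 and WT 3, against 4 to 13 counts in the first table. Summed counts of Uty, Kdm5d, Ddx3y and Eif2s3y, which lie on the Y chromosome, were 1 in TG 3 and 16 in WT 3, against 5463 to 7468 in the first table, although all libraries were labelled male. Acinar markers, which belong to the enzyme-secreting tissue around islets, summed to 349 and 169 CPM (read counts scaled to a common library total) in TG 3 and WT 3, against 3910 to 8433 CPM in the first table. All 17 tested acinar genes of 18 were lower in the second table in the edgeR test. Markers of beta cells, including the insulin genes, summed to 56423, 224372 and 54720 CPM in TG 1, TG 2 and TG 3, against 238368, 230779 and 117163 CPM in WT 1, WT 2 and WT 3, so TG 2 was close to the WT libraries of its table. Duct markers summed to 2529 to 3227 CPM in TG libraries and 1383 to 1949 CPM in WT libraries. Delta- and PP-cell markers summed to 13237 to 36371 CPM in TG and 8368 to 9578 CPM in WT, with no overlap. Alpha-cell markers summed to 23453 to 49048 CPM in TG and 19295 to 27806 CPM in WT, endothelial markers to 321 to 583 CPM in TG and 276 to 434 CPM in WT, and stellate markers to 34.5 to 182 CPM in TG and 26.2 to 79.8 CPM in WT. Every one of these lists had counts for all of its genes. The acinar level was a term in an alternative fit given below, but it nearly repeats the table. The part of other cell makeup, sex-linked transcripts or collection in the clock gene values below was not tested. The acinar level and sex-linked transcripts followed the table, and the time of collection is not given. The table cannot be told apart from these. Beta-cell sums also varied within the first table. Duct sums and delta- and PP-cell sums did not overlap between genotypes, so a TG over WT difference cannot be told apart from them. In bulk RNA, fewer cells of a type and less RNA per cell cannot be told apart.

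Sequences are shown for the microRNA that the TG mice express and for the clock genes that carry the letters pairing with its seed. The mature strand miR-203-3p, from chr12:112130927-112130948 on the plus strand of GRCm38.p6 in RefSeq, is printed with its seed (bases 2 to 8) in capitals. A match to this 7-base seed, the letters CATTTCA, was searched in the longest annotated 3′ untranslated region (UTR) of each clock gene in the GENCODE annotation of GRCm38.
miR-203-3p: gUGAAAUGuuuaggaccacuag
Arntl, UTR bases 327 to 333: atgcaaaatggtCATTTCAgatgtatg
Clock, UTR bases 597 to 603: caggtatgagtgCATTTCAttaggttt
Clock, UTR bases 4278 to 4284: atgttggcatgtCATTTCAgcgttccc
Capitals in the gene sequences mark the seed match. Arntl, with a UTR of 507 bases, held 1 match, and 6.01% of genes with a UTR of like length (the shorter at least 0.8 times the longer) held one. Clock, with a UTR of 6831 bases, held 2 matches, and 61.2% of genes of like length held at least 1. The other 8 clock genes held none, and over all 21020 genes with an annotated UTR the share was 16.1%. A match is a description of letters and shows no binding.

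Promoter windows from 250 bases before to 50 bases after each annotated start were read from RefSeq for GRCm38.p6. The table had 14 windows for 9 of the 10 clock genes, and Per2 was not among them. The E-box, letters CACGTG, which BMAL1 and CLOCK bind, was in windows of Per1, Tef and Bhlhe41 and in 7.15% of all 32851 windows on either strand. Its variant CACGTT was in Nr1d1 and in 4.68% of windows. The D-box, letters TTATGNAA or TTACGNAA, which DBP and TEF bind, was in Per1 and Per3 and in 3.99% of windows. The element of the ROR and REV-ERB receptors, letters TAGGTCA or TGGGTCA, was in Arntl and in 6.45% of windows. The cAMP element TGACGTCA was in no clock gene window and in 1.79% of all windows, and its core TGACG was in Per1 and in 20.8% of windows. Of the searched letters, TGACG is contained in TGACGTCA. Windows of 4 genes are printed in the direction of transcription with these motifs in capitals, the cAMP core left out. Windows of Tef and Nr1d1 also held motifs and are not printed.
Arntl, chr7:113207261-113207560, plus strand: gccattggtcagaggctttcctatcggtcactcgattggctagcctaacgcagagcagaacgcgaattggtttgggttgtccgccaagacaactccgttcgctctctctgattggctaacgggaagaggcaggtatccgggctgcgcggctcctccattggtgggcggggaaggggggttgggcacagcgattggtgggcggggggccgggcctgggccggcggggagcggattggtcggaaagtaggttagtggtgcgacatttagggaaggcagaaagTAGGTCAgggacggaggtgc
Per1, chr11:69098699-69098998, plus strand: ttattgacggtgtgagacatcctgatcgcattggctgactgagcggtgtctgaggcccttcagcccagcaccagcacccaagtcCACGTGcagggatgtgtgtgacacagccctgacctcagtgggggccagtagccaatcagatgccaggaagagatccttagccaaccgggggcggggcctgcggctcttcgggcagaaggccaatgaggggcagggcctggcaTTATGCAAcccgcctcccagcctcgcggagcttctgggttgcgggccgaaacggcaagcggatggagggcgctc
Per3, chr4:151044616-151044915, minus strand: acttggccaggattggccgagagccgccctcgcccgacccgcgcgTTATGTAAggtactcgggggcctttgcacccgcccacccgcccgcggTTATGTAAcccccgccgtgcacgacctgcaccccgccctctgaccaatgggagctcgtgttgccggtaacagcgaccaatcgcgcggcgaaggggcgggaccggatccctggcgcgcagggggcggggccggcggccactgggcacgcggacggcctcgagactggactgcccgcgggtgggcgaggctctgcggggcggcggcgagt
Bhlhe41, chr6:145865371-145865670, minus strand: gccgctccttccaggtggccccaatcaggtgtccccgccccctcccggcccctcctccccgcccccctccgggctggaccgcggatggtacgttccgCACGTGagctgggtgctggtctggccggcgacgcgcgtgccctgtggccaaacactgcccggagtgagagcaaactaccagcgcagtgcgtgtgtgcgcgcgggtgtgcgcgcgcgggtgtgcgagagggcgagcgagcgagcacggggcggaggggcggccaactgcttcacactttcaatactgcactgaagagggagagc
The Arntl motif begins 30 bases after the start of transcription. In Per1 the E-box begins 166 and the D-box 24 bases before it, the D-boxes of Per3 begin 205 and 158 bases before it, and the E-box of Bhlhe41 begins 153 bases before it. A match is not evidence of a bound site.

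All 10 clock genes were expressed, with 217 to 3413 counts per gene and library, and all passed the filter on low counts. On the authors' FPKM scale, which is per gene length and made separately for each table, the members lay between 1.19 FPKM for Per3 in TG 1 and 19.96 FPKM for Nr1d2 in WT 2. Nr1d2 was the highest of the 10 in the 4 first-table libraries, with 13.4 and 15.9 FPKM in TG 1 and TG 2 and 18.4 and 19.96 FPKM in WT 1 and WT 2. In the second table Dbp was the highest, with 18.7 FPKM in TG 3 and 17.7 FPKM in WT 3, against 4.29 and 5.51 FPKM in TG 1 and TG 2 and 7.36 and 8.31 FPKM in WT 1 and WT 2. Per3 was the lowest of the 10 in every library except TG 3, where Arntl was lowest. All further levels are CPM from the raw counts. They are compared only within a gene, except where genes are set against Arntl per kb.

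None of the 10 clock genes differed between TG and WT islets past an adjusted p of 0.05 in edgeR's quasi-likelihood test with the table as a term, where 0% of the 16072 genes tested were called. DESeq2 and limma-voom also called none of the 10, and DESeq2 called 4.68% of all genes. The edgeR p was under 0.05 before adjustment for 3 of the 10, Clock, Tef and Bhlhe41, all lower in TG, against 14.1% of all genes. DESeq2 gave 2 of the 10, against 2378 of all 16072 genes, and limma-voom gave 3, against 2235 of 16072. The fitted log2 difference was below 0 for 9 of the 10 genes, with Arntl the exception, and its median was -0.23 over the 10 genes against -0.01 over all genes tested. When TG 2 was left out, 2 of the 10 genes, Clock and Bhlhe41, passed the adjusted threshold as lower in TG, against 13.2% of all genes. With any other single library left out, edgeR called 0 of all genes by genotype. Without the low-count filter, edgeR called 0 of the 10 clock genes by genotype, against 5.62% of all genes. Some genes called without TG 2, such as Arntl2, Pfkfb3 and Mt1, were also called with all libraries by DESeq2 and without that filter. Others, Clock, Bhlhe41 and Cry2 among them, were called in neither of these fits. The labels do not say whether libraries came from separate animals, so the p-values may cover technical spread only.

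**Figure D1:**
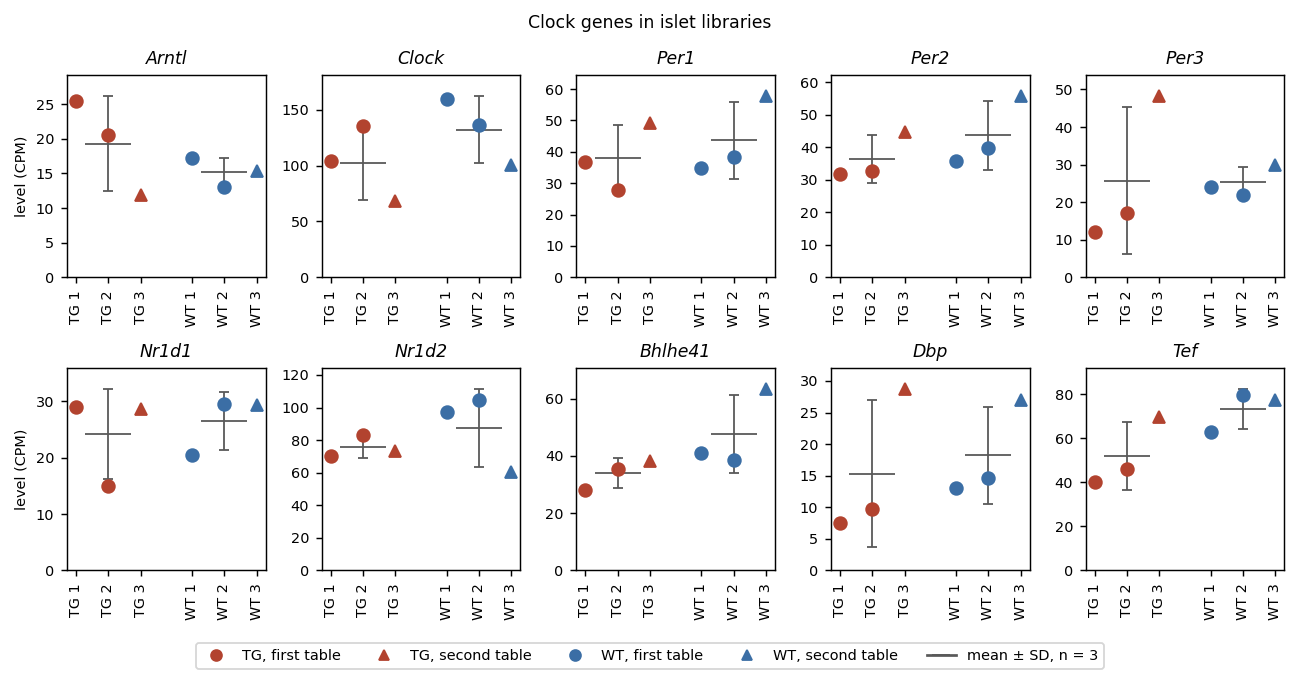
Level of each clock gene in CPM (vertical axis, linear from 0, own scale per gene) in the TG and WT libraries; circles are first-table and triangles second-table libraries, and lines with whiskers give the mean ± SD of a genotype (n = 3). Bhlhe41 is the gene whose TG libraries all lie below all WT libraries, and the triangles of Dbp, near 28.7 and 27.0 CPM, lie above all of its circles.

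Of the activators, Arntl (chr7:113207465-113314122, plus strand), which encodes BMAL1, had 25.4, 20.6 and 11.9 CPM in TG 1, TG 2 and TG 3, against 17.2, 13.1 and 15.3 CPM in WT 1, WT 2 and WT 3. TG 1 and TG 2 were the highest of the 6 libraries and TG 3 the lowest, so the groups overlapped. It averaged 19.3 ± 6.86 CPM in the TG group and 15.2 ± 2.05 CPM in the WT group (SD, n = 3 each), with a log2 fold change of 0.29 (SE 0.25, edgeR adjusted p = 0.642). Clock (chr5:76209868-76304792, minus strand), which encodes its partner, had 104, 135 and 68.1 CPM in the TG libraries, against 159.9, 136 and 100.4 CPM in the WT libraries. Each TG library was below the WT mean of its own table, TG 2 by the least, and the groups overlapped. The log2 fold change was -0.39 (SE 0.16, edgeR adjusted p = 0.344) over all libraries. It was -0.54 (edgeR adjusted p = 0.0479) without TG 2, the only library whose removal gave a call.

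Of the Period repressors, Per1 (chr11:69095217-69109960, plus strand), which light, cAMP and glucocorticoids can also induce, had 36.9, 27.7 and 49.1 CPM in TG 1, TG 2 and TG 3, against 34.9, 38.3 and 57.7 CPM in WT 1, WT 2 and WT 3. Its highest values were those of TG 3 and WT 3. The log2 fold change was -0.20 (SE 0.15, adjusted p = 0.588). Per2 (chr1:91415982-91459324, minus strand), whose product holds CRY proteins in the repressor complex, had 31.7, 32.8 and 44.9 CPM in TG, against 35.7, 39.9 and 55.7 CPM in WT. Each TG library was 0.20 to 0.31 lower on the log2 scale than the WT mean of its table, but the groups overlapped because both second-table libraries were higher. Its log2 fold change was -0.26 (SE 0.12, adjusted p = 0.400). Per3 (chr4:151003652-151044665, minus strand), the least essential Period gene for rhythms in mice, had 11.9, 17.1 and 48.2 CPM in TG, against 23.9, 21.9 and 30.0 CPM in WT. It was the most scattered of the 3, averaging 25.8 ± 19.6 CPM in the TG group and 25.3 ± 4.21 CPM in the WT group (SD, n = 3 each), since TG 1 and TG 2 were below and TG 3 was above every WT library. The log2 fold change was -0.21 (SE 0.30, adjusted p = 0.791), and its sign turned to 0.08 without TG 1. The whole of Per3 lies within the annotated span of Camta1 on the same strand, which had 257 to 373 counts in TG libraries and 320 to 515 counts in WT libraries, so reads of the pair may be shared.

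The nuclear receptor genes had the smallest fitted differences of the 10. Nr1d1 (chr11:98767932-98775333, minus strand), the REV-ERBα gene, had 29.0, 14.9 and 28.6 CPM in TG, against 20.5, 29.6 and 29.4 CPM in WT. TG 2 was lowest and the other libraries interleaved. Its log2 fold change of -0.14 (SE 0.27, adjusted p = 0.847) turned to 0.10 without TG 2 and to 0.04 without WT 2. Nr1d1 shares 1075 bases with Thra on the opposite strand, which had 734 to 1406 counts in TG and 512 to 909 in WT, and the strand setting of the counting is not given in the sources used here. Nr1d2 (chr14:18204054-18239127, minus strand), the REV-ERBβ gene, had 70.1, 83.1 and 73.4 CPM in TG, against 97.1, 105 and 60.3 CPM in WT. The lowest library was WT 3 and the groups overlapped, with a log2 fold change of -0.17 (SE 0.18, adjusted p = 0.695).

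Bhlhe41 (chr6:145858243-145865558, minus strand) encodes DEC2, which competes with BMAL1 and CLOCK for E-boxes. It had 28.1, 35.4 and 38.3 CPM in TG 1, TG 2 and TG 3, against 41.2, 38.5 and 63.3 CPM in WT 1, WT 2 and WT 3. It was the single clock gene whose groups did not overlap, with all TG libraries below all WT libraries by a narrow margin between TG 3 and WT 2, as in 6.42% of all genes tested, and no clock gene had all TG libraries above, as in 6.96% of all genes. It averaged 33.9 ± 5.26 CPM in the TG group and 47.7 ± 13.6 CPM in the WT group (SD, n = 3 each). The log2 fold change was -0.46 (SE 0.16, edgeR adjusted p = 0.277) with all libraries. It was -0.60 (edgeR adjusted p = 0.0259) without TG 2, the only library whose removal gave a call.

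The output genes Dbp and Tef, which encode related D-box factors, had their lowest values in TG 1 and TG 2. Dbp (chr7:45705247-45710203, plus strand) had 7.55, 9.68 and 28.7 CPM in TG, against 13.0, 14.7 and 27.0 CPM in WT. TG 3 and WT 3 were the highest and close to each other, so the genotypes overlapped across tables. The log2 fold change was -0.42 (SE 0.22, adjusted p = 0.431). Tef (chr15:81802421-81826861, plus strand) had 40.3, 45.9 and 69.7 CPM in TG, against 63.0, 79.6 and 77.3 CPM in WT. Within each table every TG library was below every WT library, although TG 3 was above WT 1. Tef had the lowest fitted value of the 10, averaging 52.0 ± 15.6 CPM in the TG group and 73.3 ± 8.96 CPM in the WT group (SD, n = 3 each), with a log2 fold change of -0.53 (SE 0.18, adjusted p = 0.272).

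**Figure D2:**
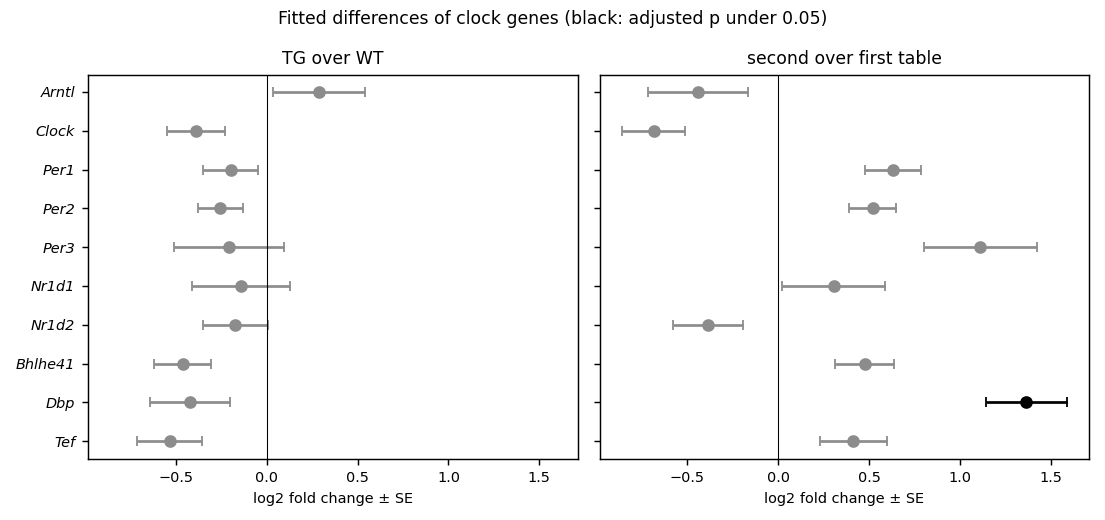
Fitted log2 fold change with its SE (horizontal axis) of each clock gene, TG over WT in the left panel and second over first table in the right panel; black marks an edgeR adjusted p under 0.05. In the left panel 9 of 10 points lie below 0 and none is black, and in the right panel Dbp, at 1.36, is the black point.

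Clock transcripts change with the hour, and the labels do not say when each table's islets were taken, so the tables were compared with the genotype as a term. Dbp was higher in the second table: 28.7 CPM in TG 3 and 27.0 CPM in WT 3, a mean of 27.8 CPM, against 11.2 ± 3.21 CPM (SD, n = 4) in the first. Its log2 fold change was 1.36 (SE 0.22, adjusted p = 0.0261), and it was the 1 of 10 clock genes called by edgeR and by limma-voom, against 9.53% of all genes in edgeR. DESeq2 called 5 of the 10, Clock as lower and Per1, Per2, Per3 and Dbp as higher, against 21.4% of all genes. At an unadjusted p under 0.05, edgeR gave 6 of the 10, those 5 and Bhlhe41, against 32.2% of all genes. The edgeR call of Dbp was lost without TG 3 (log2 fold change 0.96, adjusted p = 0.252), without WT 1 (1.42, adjusted p = 0.0892), without WT 2 (1.48, adjusted p = 0.0797) and without WT 3 (1.72, adjusted p = 0.155), and with the acinar level as a term (3.17, adjusted p = 0.9996). In the fits without TG 3 or a WT library 6 to 32 of all genes were called, and with the acinar term 0. Without TG 1 edgeR called 3 of the 10 clock genes, against 14% of all genes, and without TG 2 it called 5, against 17.8% of all genes. Dbp shares 741 bases with Sphk2 on the opposite strand, whose counts were 2442 and 2694 in TG 3 and WT 3, against 853 to 1273 in the first table.

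The Period genes lay on the same side as Dbp. Both second-table libraries were above all first-table libraries for Per1, Per2, Per3 and Dbp, 4 of the 10, as in 17.9% of all genes, and both were below for Clock, as in 20.6% of all genes. The log2 difference of the second over the first table was 0.63 for Per1 (SE 0.16, adjusted p = 0.0515), 0.52 for Per2 (SE 0.13, adjusted p = 0.0515) and 1.11 for Per3 (SE 0.31, adjusted p = 0.0651). Clock had -0.69 (SE 0.17, adjusted p = 0.0544). Arntl, with -0.44 (SE 0.27, adjusted p = 0.304), and Nr1d2, with -0.39 (SE 0.19, adjusted p = 0.212), were the other genes with a fitted value below 0. Bhlhe41 had 0.47 (SE 0.16, adjusted p = 0.102), Tef 0.41 (SE 0.19, adjusted p = 0.176) and Nr1d1 0.31 (SE 0.28, adjusted p = 0.497). The median over the 10 genes was 0.44, against -0.03 over all genes tested.

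The difference between tables was also taken within each genotype. Dbp differed between the tables by 1.73 on the log2 scale in TG and by 0.96 in WT, Per3 by 1.75 in TG and 0.39 in WT, and Per1 by 0.62 in TG and 0.66 in WT. Arntl differed by -0.94 in TG and by 0.03 in WT, and Nr1d2 by -0.06 in TG and -0.74 in WT. The interaction of table and genotype asks whether the TG effect differs between the tables. It was called by edgeR, DESeq2 and limma-voom for none of the 10. Over all genes, edgeR and limma-voom called 0% and DESeq2 0.0311%. At an unadjusted p under 0.05, edgeR gave 1 of the 10, Per3 (log2 1.34, SE 0.41, adjusted p = 0.9999), against 2.28% of all genes. The value for Arntl was -0.97 (SE 0.43, adjusted p = 0.9999). TG 3 and WT 3 are single libraries of their genotype there, so the spread in this test comes from the first table.

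**Figure D3:**
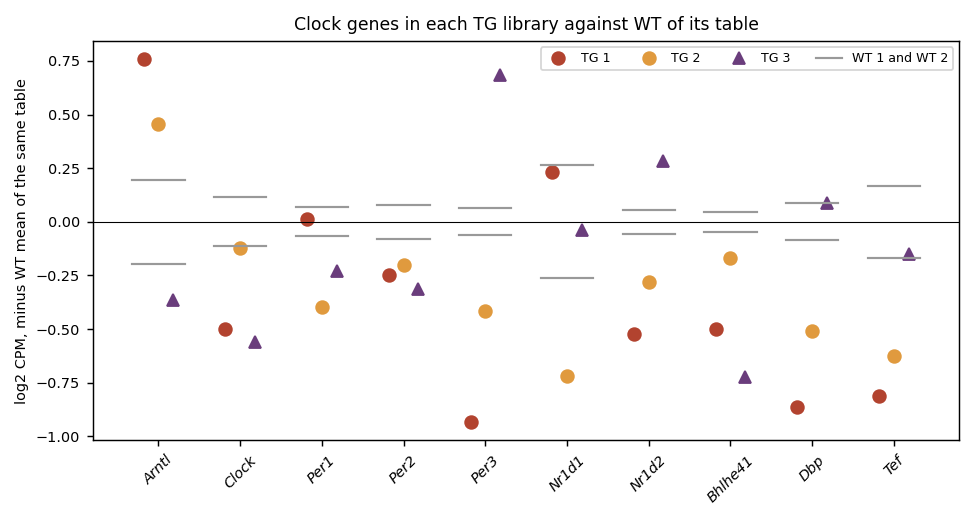
Log2 CPM of each clock gene in TG 1, TG 2 and TG 3 minus the mean of the WT libraries of the same table (vertical axis); grey lines mark WT 1 and WT 2 around their own mean, and WT 3 is the lone WT library of its table. Arntl, Per3, Nr1d2 and Dbp have TG 3 on the other side of 0 from TG 1 and TG 2, at -0.37, 0.68, 0.28 and 0.09.

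Within the first table alone, TG 1 and TG 2 were both above WT 1 and WT 2 for 1 clock gene, Arntl, as in 15.8% of all genes, and both below for 7, as in 17.2% of all genes. The 7 were Clock, Per2, Per3, Nr1d2, Dbp, Tef and Bhlhe41. A fit of these 4 libraries alone gave 4 of the 10 an unadjusted p under 0.05, against 5.33% of all genes. No adjusted p was under 0.05. These were Arntl with a log2 fold change of 0.61 (SE 0.24, adjusted p = 0.928), Per3 with -0.66 (SE 0.25, adjusted p = 0.914), Dbp with -0.68 (SE 0.26, adjusted p = 0.914) and Tef with -0.73 (SE 0.20, adjusted p = 0.914), all from edgeR. TG 1 lay farther from WT than TG 2 for each of them. Against the WT mean of their table, TG 1 and TG 2 differed by 0.76 and 0.45 for Arntl, by -0.93 and -0.41 for Per3, by -0.86 and -0.51 for Dbp and by -0.81 and -0.62 for Tef, on the log2 scale. TG 3 differed from WT 3 by -0.37, 0.68, 0.09 and -0.15 for the same genes in the same order.

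A difference between genes within a library does not depend on its depth, so Dbp, Per3 and Nr1d1 were set against Arntl, which runs in antiphase to them. The other clock genes were not set against it. Of those, Per1, Per2, Tef and Bhlhe41 had a fitted difference between tables above 0, and Clock and Nr1d2 below. On a log2 CPM per kb scale, Dbp minus Arntl was -0.96, -0.29 and 2.06 in TG 1, TG 2 and TG 3, against 0.39, 0.96 and 1.61 in WT 1, WT 2 and WT 3. The TG libraries thus held both the lowest values, in the first table, and the highest, in the second. Per3 minus Arntl was -2.82, -1.99 and 0.30 in TG, against -1.25, -0.98 and -0.76 in WT, in the same order of libraries. Nr1d1 minus Arntl was 0.11, -0.55 and 1.19 in TG, against 0.17, 1.10 and 0.86 in WT, where TG 1 and WT 1 lay side by side. No test was made of these distances, which rest on the levels given above.

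**Figure D4:**
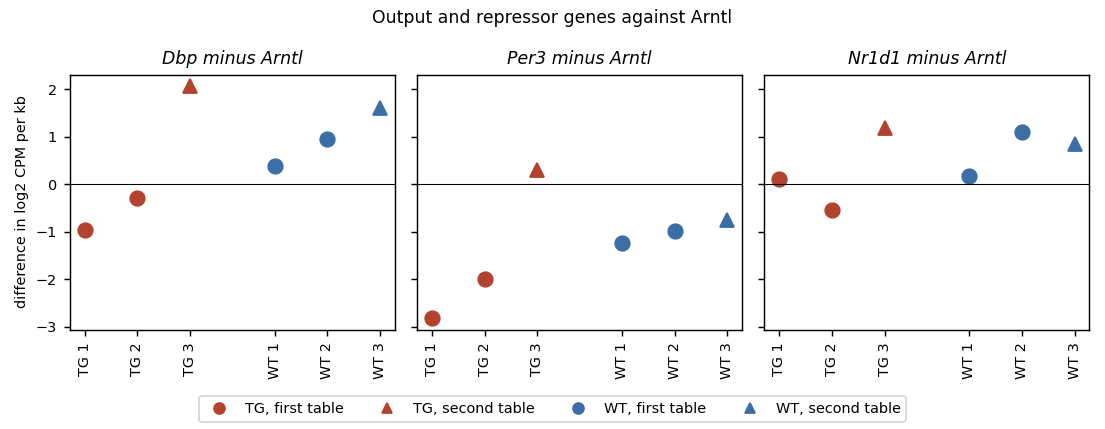
Difference in log2 CPM per kb between Dbp, Per3 or Nr1d1 and Arntl (vertical axis) in each TG and WT library; circles are first-table and triangles second-table libraries. For Dbp and Per3 the TG circles are the lowest points and the TG triangle, at 2.06 and 0.30, is the highest.

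Of 20 other clock genes, 19 were tested, with Rorb below the filter on low counts. In TG over WT, 10 had a fitted value above 0 and 9 below, with a median log2 fold change of 0.02. EdgeR and limma-voom called none, while DESeq2 called 2 as higher, Arntl2 among them, against 4.68% of all genes. At an unadjusted p under 0.05, edgeR gave 4 higher and 0 lower in TG, against 14.1% of all genes. Arntl2 and Bhlhe40 were among the 4. Arntl2, a paralogue of Arntl, had 6.82, 3.57 and 7.35 CPM in TG, against 2.54, 2.77 and 2.19 CPM in WT, with no overlap (log2 fold change 1.23, SE 0.34, adjusted p = 0.234). Bhlhe40, the DEC1 gene and paralogue of Bhlhe41, had 88.1, 23.8 and 50.8 CPM in TG, against 23.8, 21.4 and 32.1 CPM in WT. Its log2 fold change of 1.09 (SE 0.45, adjusted p = 0.342) was opposite in sign to that of Bhlhe41, and it was 0.33 without TG 1, the library far above the others.

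Without TG 2, edgeR called 5 of the 19 as higher in TG, Csnk1e, Bhlhe40, Arntl2 and Cry2 among them, and none as lower, against the 13.2% of all genes given above. None of the partners and competitors of the clock proteins was called by genotype with all libraries. The repressor genes Cry1 and Cry2 had log2 fold changes of -0.11 (adjusted p = 0.850) and 0.35 (SE 0.15, adjusted p = 0.368), in that order. Npas2, which can replace Clock, had 0.12 (adjusted p = 0.878). Ciart, a repressor of BMAL1 and CLOCK, had -0.52 (adjusted p = 0.504), and Nfil3, the repressor that competes with DBP at D-boxes, had -0.20 (adjusted p = 0.797). Hlf, the D-box factor related to Dbp and Tef, had 6.12, 4.49 and 5.85 CPM in TG, against 6.64, 7.48 and 8.27 CPM in WT, all TG libraries lying below (log2 fold change -0.44, SE 0.22, adjusted p = 0.417). Between tables, edgeR called 2 of the 19 as higher and 1 as lower in the second, against 9.53% of all genes. Cry2 was higher in the second table, with 131 and 88.7 CPM in TG 3 and WT 3, against 59.6 to 81.6 CPM in the first (log2 0.71, SE 0.16, adjusted p = 0.0426). Npas2, which follows the phase of Arntl, was lower, with 3.53 and 4.03 CPM in TG 3 and WT 3, against 7.13 to 13.5 CPM in the first table (-1.58, SE 0.32, adjusted p = 0.0365). The calls of Cry2 and Npas2 were both lost in the fits that also lost that of Dbp, those without TG 3, without any one of the WT libraries, and with the acinar level as a term. Their fitted values there were 0.55 to 0.85 for Cry2 and -4.31 to -1.33 for Npas2.

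Among 10 genes known as clock outputs in many tissues, 5 had a fitted value above 0 and 5 below in TG over WT, with a median log2 fold change of 0.11, and edgeR and limma-voom called none while DESeq2 called Pfkfb3 as higher, against 4.68% of all genes. Unadjusted, edgeR gave 3 higher and 0 lower at p under 0.05, against 14.1% of all genes. Pfkfb3, an activator of glycolysis, had 113, 25.8 and 52.6 CPM in TG, against 24.6, 17.4 and 18.6 CPM in WT, with no overlap and a log2 fold change of 1.65 (SE 0.50, adjusted p = 0.246), which was 0.83 without TG 1. Usp2, a deubiquitinase that acts on clock proteins, had 4.42, 2.62 and 7.06 CPM in TG, against 1.89, 2.16 and 2.80 CPM in WT, with TG 2 below WT 3 (0.98, SE 0.31, adjusted p = 0.252). The kinase gene Wee1 had 0.83 (adjusted p = 0.343) and Lonrf3 had -1.17 (adjusted p = 0.368). Without TG 2, edgeR called 3 of these outputs as higher and 1 as lower in TG, against 13.2% of all genes. Between tables edgeR called 3 of the 10, against 9.53% of all genes. Por, the reductase partner of cytochrome P450 enzymes, was higher in the second table (log2 0.93, SE 0.18, adjusted p = 0.0334). Nampt, the enzyme of NAD salvage (-0.99, SE 0.21, adjusted p = 0.0373), and Coq10b, a coenzyme Q binding protein gene (-0.82, SE 0.15, adjusted p = 0.0308), were lower. These 3 calls too were lost in the same fits, where the fitted values were 0.80 to 1.22 for Por, -2.52 to -0.75 for Nampt and -0.89 to -0.57 for Coq10b.

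Glucocorticoids and cAMP can induce Per1, so genes known to answer to them are given beside it. Of 10 glucocorticoid-induced genes, 4 had a fitted value above 0 and 6 below in TG over WT, with a median log2 fold change of -0.10. EdgeR and limma-voom called none and DESeq2 called Mt1 as lower, against 4.68% of all genes. Before adjustment, edgeR gave 1 higher, Errfi1, and 3 lower, Mt1, Mt2 and Fkbp5, at p under 0.05, against 14.1% of all genes. Mt1, a metallothionein that zinc also induces, had 513, 1111 and 205 CPM in TG, against 1599.9, 2399 and 1083 CPM in WT, with TG 2 just above WT 3 (log2 fold change -1.66, SE 0.39, adjusted p = 0.203). Fkbp5, a chaperone of the glucocorticoid receptor, had 50.4, 55.1 and 40.2 CPM in TG, against 67.1, 68.6 and 79.6 CPM in WT, with no overlap (-0.57, SE 0.16, adjusted p = 0.239). Mt2 had -1.90 (adjusted p = 0.238) and Errfi1, a feedback inhibitor of EGF receptors, 0.72 (adjusted p = 0.310). Of 10 cAMP-induced and immediate-early genes, 8 had a fitted value above 0 and 2 below, with a median of 0.40, and edgeR, DESeq2 and limma-voom called none. At an unadjusted p under 0.05, edgeR, with 14.1% of all genes, and DESeq2, with 2378 of all 16072 genes, gave 0 of them. Limma-voom, with 2235 of 16072 genes, gave 1. Egr1, an early response transcription factor, had 99.1, 39.5 and 245 CPM in TG, against 60.2, 20.9 and 55.7 CPM in WT (1.23, adjusted p = 0.364). Nr4a3 had 1.07 (adjusted p = 0.472), Junb 0.42 (adjusted p = 0.505) and Ier2 0.52 (adjusted p = 0.511). Without TG 2, edgeR called 2 glucocorticoid-induced genes as higher and 4 as lower in TG, and Nr4a3 as higher, against 13.2% of all genes. Of the 4 lower genes, 1 is also on the list of clock outputs and is the lower gene counted there. Between tables edgeR, with 9.53% of all genes called, called none of either list, and DESeq2, with 21.4%, called Mt1 and Crem as lower in the second. At an unadjusted p under 0.05, edgeR gave 0 higher and 2 lower among the glucocorticoid-induced genes and 0 higher and 1 lower among the cAMP and immediate-early genes, against 32.2% of all genes.

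The genes whose pattern within tables was most like that of Dbp were sought by Pearson's r of log2 CPM centred on the table mean. Centring takes out the difference between tables, in which Dbp was higher in the second, so these genes need not share it. Of 11046 genes with a mean of at least 5 CPM outside the lists, 26 reached 0.95. The 5 highest were Mtus1 (0.998), Arpin (0.989), Slc16a9 (0.982), Pax6os1 (0.980) and Nr6a1 (0.980), and the 5 lowest were Enah (-0.992), Cdkn2aip (-0.991), Btg3 (-0.990), Narf (-0.989) and Ffar2 (-0.987). Between tables, Mtus1 went against Dbp, with 45.3 and 44.4 CPM in TG 3 and WT 3, against 52.1 to 65.8 CPM in the first table. Enah went with Dbp, with 112 and 115 CPM in TG 3 and WT 3, against 92.9 to 108 CPM in the first. The clock genes were not in this search, and with 6 points that share library depth and table centring the values only describe these libraries.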

How the data were processed

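RNA from islets of 3 TG and 3 WT samples was sequenced after NEBNext Ultra library preparation, per the labels' protocols. The submitters' processing notes name CASAVA 1.8, HISAT2 and the build GRCm38 (mm10). How reads were counted, with which strand setting and annotation, is not given in the sources used here. The authors deposited raw counts per gene as whole numbers, a normalized signal close to the count times 1 factor per library, and FPKM made per table, per the file headers and values. The signal was not used further, and FPKM served to compare levels between genes. The differences from Arntl were instead made from CPM per kb of gene length. Counts of 47643 genes were joined on gene ID. The model had table and genotype as terms and used edgeR 4.0.16 under R 4.3.3 (filterByExpr, TMM, quasi-likelihood F-test), with Benjamini-Hochberg adjustment over the 16072 genes tested at a threshold of 0.05. The SE was obtained from the F statistic as the size of the log2 fold change over the root of F. CPM use TMM-adjusted library sizes, and log2 CPM has 0.1 added. DESeq2 1.42.0, limma 3.58.1 (voom), other scaling, no filter, no table term, the acinar level as a term and each library left out were alternatives. The edgeR fit was also run on simulated counts with the same spread for all genes and no difference between tables. That run checked the code and says nothing of power or error in these data. The clock genes, lists and tests were chosen with earlier results of these data known. All 10 clock genes are named, with the 4 genes of smallest p per other list, Npas2, Cry1, Cry2, Ciart, Hlf and Nfil3. The 5 genes most and least like Dbp within tables are named too. Por, Nampt and Coq10b were named after their values were seen. Some genes that the rule takes are not reported here. Total counts were 20176456 to 27482339, and the lowest count of a clock gene was 217.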

Additional observations from a re-analysis of the deposited data

How the results depend on the processing

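No paired analysis was possible because the labels share no replicate numbers. The number of the 10 clock genes called in TG over WT was 0, and 0 to 2 when each library was left out (2 without TG 2). In second over first table it was 1, against 5 with DESeq2, 2 with RLE size factors (9.17% of all genes called), 5 without the low-count filter (12.4% of all genes), 0 with the acinar level as a term (a term that nearly repeats the table, and with which no gene was called) and 0 to 5 when each library was left out. The interaction count was 0 wherever it was fitted. The interaction was not fitted with the acinar term, and it could not be fitted for the first table alone, no table term or without TG 3 or WT 3. Signs turned as follows on the log2 scale, and the cause was not tested. In TG over WT, Per3 was 0.026 without the table term and -0.66 to 0.076 when each library was left out, Nr1d1 -0.43 to 0.10 and Npas2 -0.15 to 0.39. Cry1 was 0.12 in the first table alone and -0.34 to 0.12 with each library left out, and Nfil3 0.24 and -0.49 to 0.24. In second over first table, Arntl was -0.96 to 0.021 with each library left out, and with the acinar level as a term Nr1d2 was 1.06 and Bhlhe41 -0.072. Of the 10 clock genes, Per3 and Nr1d1 were the ones whose sign turned in TG over WT under these alternatives. Dbp between tables ranged from 0.96 to 3.17, past the threshold in 7 of 12 alternatives (adjusted p 1.77e-07 to 0.9996). RLE scaling moved the median of all genes in TG over WT by less than 0.1. The per-gene alternatives between tables were added after the data were seen. With 1 library per genotype, the second table limits what can be read from the interaction.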
